A study of Mus musculus with 6 samples.

Results

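The genes described here are the G1 cyclins of the D and E types, Ccnd1, Ccnd2, Ccnd3, Ccne1 and Ccne2, with the kinases they activate, Cdk2, Cdk4 and Cdk6. They were chosen by name because the inhibitor p27 binds the complexes that they form. All 8 were found among the 24062 gene symbols of the count table, and all 8 passed the filter on low counts that left 13990 genes for testing. RNA was sequenced at day 10 from mouse embryonic fibroblasts (MEFs), cells of C57BL/6 embryonic connective tissue kept in culture. In 3 libraries the cells had been given p27 by lentivirus (p27OE), and 3 libraries came from cells labelled EV control, an abbreviation that the labels do not spell out. All 3 control titles carry a dataset tag and no p27OE title does, so any difference tied to that tag and the effect of p27 cannot be told apart. The promoter that drove p27, the form of the introduced transcript and the number of embryos behind each library are details not given in the sources used here. Series text describes non-senescent cells while the treatment text and the p27OE titles call them senescent, so the groups are compared under their names alone.

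D-type cyclins are made in response to growth factors and bind Cdk4 and Cdk6, and the resulting kinases begin the phosphorylation of the retinoblastoma protein and its relatives. That releases E2F transcription factors, which switch on the E-type cyclins and the genes of DNA replication, and cyclin E with Cdk2 completes the step into S phase. The protein p27, encoded by Cdkn1b, blocks cyclin E and Cdk2 strongly, and with D cyclins and Cdk4 it also helps the complex to assemble, so that D-cyclin complexes can hold p27 away from Cdk2.

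Library totals ran from 39183624 to 61219345 counts, and a member had between 301 counts (Cdk6) and 59074 counts (Ccnd2) in a library. As a check of the labels, Cdkn1b was at 43.9, 31.5 and 32.3 CPM (counts scaled to the size of each library, with TMM factors) in EV control 1, 2 and 3 and at 167, 232 and 337 CPM in p27OE 1, 2 and 3, a rise (edgeR adjusted p = 0.028) whose call was lost without any single library other than EV control 1, at up to 0.189. All 8 fibroblast markers examined were expressed, at a summed 30530 to 49950 CPM. Macrophage markers, 8 of 9 of them in the table, summed to 33.4 CPM in EV control 1 and to between 7.79 and 11.1 CPM in the other 5 libraries. All of these but Cd14 were highest in EV control 1, where Csf1r, C1qa and Itgam were at 9.2, 6.85 and 5.4 CPM. Aif1 was at or near 0 in every library. Skeletal muscle markers summed to between 39.3 and 124 CPM in the controls and between 78.2 and 312 CPM in p27OE libraries, all but wholly from Des and Acta1, while Myod1, Myog and Myh3 were at or near 0. Endothelial markers summed to between 3.29 and 7.73 CPM, epithelial ones to between 1.95 and 8.15 CPM and neural ones to between 59.3 and 85.5 CPM. Their part in the results below was not tested. Summed Y-linked CPM was 0.125 in EV control 1 and 1.95 in p27OE 1, against 57.2 in p27OE 2 and from 124 to 137 in the remaining 3 libraries, so libraries 1 stood apart in both groups. The X-linked transcript Xist ran the other way. It was at 406.8, 330.5 and 163.6 CPM in EV control 1, p27OE 1 and p27OE 2, against 0.457 to 5.67 CPM in the remaining 3. Whether these differences follow the sex of the embryos was not tested. In whole cultures, fewer cells of a kind and less RNA per cell cannot be told apart.

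Transcripts of 2 D cyclins, Ccnd1 and Ccnd2, rose in p27OE cells, each by about 1.7-fold, while those of the E cyclins and of the 3 kinases did not pass the test. Thus 2 of 8 members rose and 0 fell (edgeR quasi-likelihood test, Benjamini-Hochberg adjusted p under 0.05 over all genes tested), where 2.61% of all genes changed, 1.77% upward and 0.843% downward. At an unadjusted p under 0.05 there were 2 higher members and 1 lower, Cdk2, where 13.1% of all genes were higher and 12.9% lower. DESeq2 called 2 higher and 1 lower, where it called 8.19% and 8.41% of all genes. With limma-voom 2 members were higher and 0 lower, where 2.04% and 0.958% of all genes were. These shares are the background for every count by the same threshold or tool given later. The groups did not overlap for 4 members, Ccnd1 and Ccnd2 above and Cdk2 and Cdk4 below, where 33.3% of all genes had groups that did not overlap, 16.8% above and 16.5% below.

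**Figure D1:**
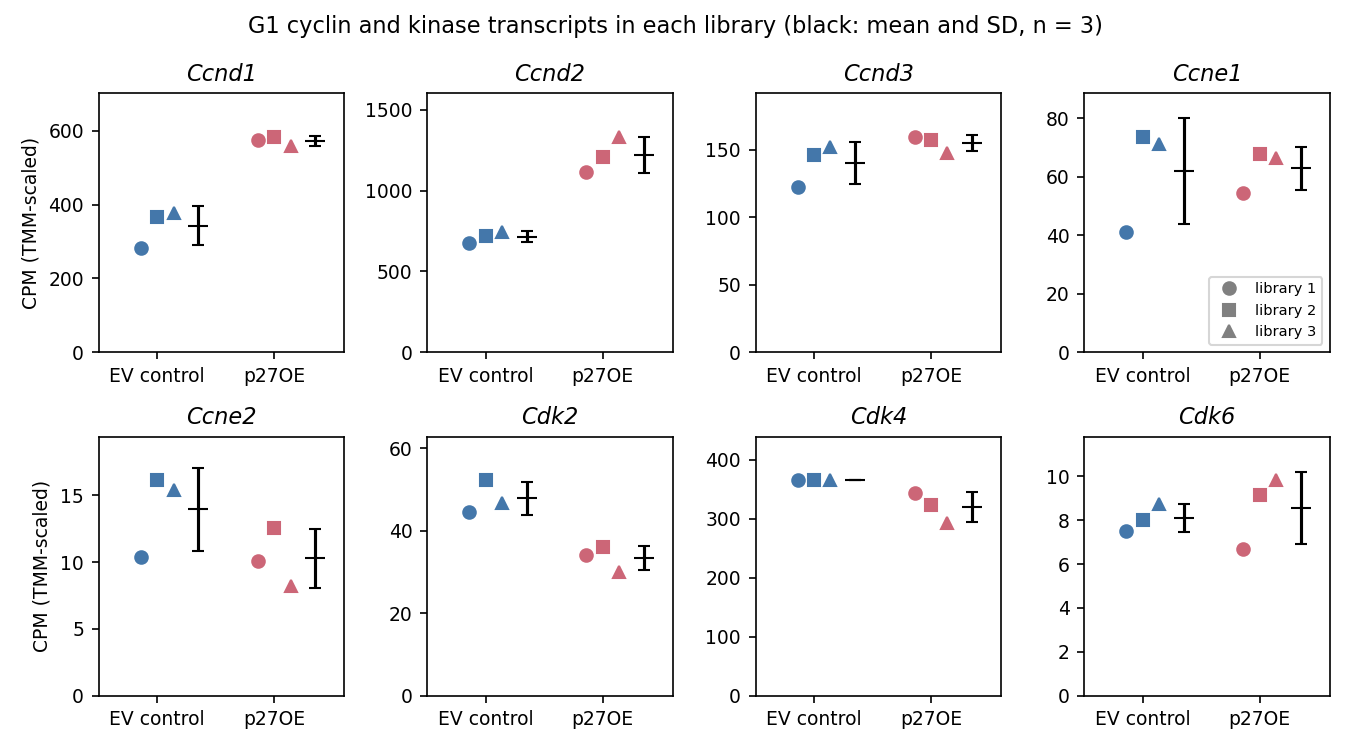
Level of each transcript in every library, in CPM scaled by TMM factors on axes that start at 0, with EV control in blue and p27OE in red, 1 symbol per library number, and the mean and SD (n = 3) in black. Ccnd1 and Ccnd2 are higher in all p27OE libraries than in any EV control library, Cdk2 and Cdk4 are lower in all of them, and the other 4 transcripts overlap.

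Ccnd1, Ccnd2 and Ccnd3 encode cyclins D1, D2 and D3, proteins of the same fold that bind the same kinases. Because Ccnd1 and Ccnd2 moved together, the sequences were compared to see whether their reads could be mixed up. The longest run of identical bases between their coding sequences (GENCODE M21) is 20 bases, shown here in capitals with up to 15 bases on either side. It starts at coding base 133 of Ccnd1 and 127 of Ccnd2, counted from the A of the start codon.
Ccnd1: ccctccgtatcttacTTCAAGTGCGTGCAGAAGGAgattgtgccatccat
Ccnd2: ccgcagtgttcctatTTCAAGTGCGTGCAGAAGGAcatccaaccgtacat
Ccnd1 and Ccnd3 share at most 17 bases in a row, and Ccnd2 and Ccnd3 at most 14. None of the 50-base stretches of the Ccnd1 or Ccnd2 transcripts occurs in a transcript of another gene. For Ccnd3 1.99% of them do, in its pseudogene Ccnd3-ps among others.

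Ccnd1 (chromosome 7, 144929931 to 144939925, GRCm38) was at 282, 367 and 377 CPM in EV control 1, 2 and 3 and at 575, 584 and 558 CPM in p27OE 1, 2 and 3. The 3 p27OE libraries lay close together and above every control, of which EV control 1 was the lowest. The mean went from 342 ± 52.6 to 572 ± 13.4 CPM (SD, n = 3 each), a fold change of 1.67 with a 95% interval of 1.36 to 2.06 (log2 0.74 ± 0.13, SE; edgeR adjusted p = 0.045). Leaving out EV control 1 kept the call (adjusted p = 0.0204, edgeR), and leaving out any other single library lost it, at adjusted p from 0.0903 to 0.202 and log2 values from 0.71 to 0.82.

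Ccnd1 shares 23.4% of its annotated exonic bases with LTO1, a gene on the opposite strand that the count table lists under its older symbol Oraov1. The counting's strand setting appears in no source used here, so reads of this overlap cannot be assigned with certainty. Oraov1, looked up after the values of Ccnd1 were seen, was at 20.6, 18.9 and 18.7 CPM in the controls and at 27.6, 24.9 and 29.0 CPM in p27OE. It also rose, by 0.49 ± 0.09 on the log2 scale (SE; edgeR adjusted p = 0.0495), and lost its call with the 3 other scalings and without a filter (adjusted p from 0.0501 to 0.0553) and without any single library other than EV control 1 (0.0948 to 0.225).

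Ccnd2 (chromosome 6, 127125162 to 127152193) gave the most counts of the 8 members. It was at 678, 716 and 747 CPM in EV control 1, 2 and 3 and at 1118, 1211 and 1335 CPM in p27OE 1, 2 and 3. The groups lay far apart, with p27OE 3 the highest library. The mean went from 714 ± 34.4 to 1221 ± 109 CPM (SD, n = 3 each), a fold change of 1.71 with a 95% interval of 1.45 to 2.01 (log2 0.77 ± 0.10, SE; edgeR adjusted p = 0.0303). Without EV control 1 the adjusted p was 0.0217, and without any other single library it was 0.0707 to 0.189 (edgeR), with log2 values from 0.70 to 0.82. Over the genes tested, no more than 2 passed in any of those 5 fits.

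Ccnd3 (chromosome 17, 47505051 to 47599691), the least abundant D cyclin here, was at 123, 146 and 152 CPM in the control libraries and at 160, 157 and 148 CPM in the p27OE libraries. The groups overlapped, since EV control 3 lay above p27OE 3. Its log2 fold change of 0.14 had a 95% interval of -0.09 to 0.38 (edgeR adjusted p = 0.41), which leaves room for a rise of up to 1.3-fold.

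**Figure D2:**
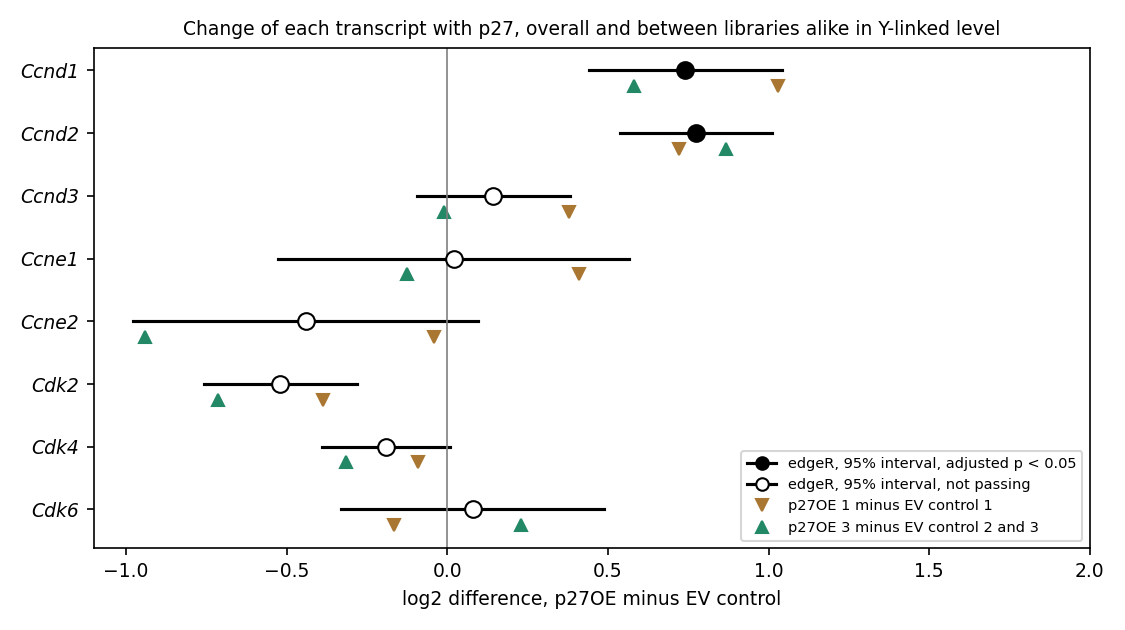
Log2 difference of each transcript between p27OE and EV control. Circles with lines are edgeR values over all 6 libraries with 95% intervals, filled where the adjusted p was under 0.05; triangles are differences between libraries alike in Y-linked level. All points of Ccnd1 and Ccnd2 lie to the right of 0 and all those of Cdk2 and Cdk4 to the left. The groups of these transcripts did not overlap, so the side of their triangles was fixed in advance. The interval of Cdk4 crosses 0, reaching 0.01.

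Neither E cyclin passed the test. Ccne1 (chromosome 7, 38097984 to 38107534), which encodes cyclin E1, measured 41.1, 73.7 and 71.1 CPM in EV control 1, 2 and 3, against 54.5, 67.6 and 66.4 CPM in p27OE 1, 2 and 3. The lowest value in each group was that of library 1, and the p27OE range lay inside the control range. The log2 fold change of 0.02 had a 95% interval of -0.53 to 0.57 (edgeR adjusted p = 0.965), so changes of up to about 1.5-fold either way are within it. The value was below 0 in 5 of 16 alternatives, at -0.22 without EV control 1 against 0.16 without EV control 2.

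Ccne2 (chromosome 4, 11191351 to 11204779), which encodes cyclin E2, measured 10.4, 16.1 and 15.4 CPM in the controls, against 10.1, 12.6 and 8.19 CPM in p27OE. The groups overlapped because EV control 1 was as low as p27OE 1. On the log2 scale the difference was -0.44 ± 0.22 (SE; edgeR adjusted p = 0.269), and every alternative gave a value below 0 without a call. Of its exonic bases 17.4% overlap Ints8 on the opposite strand, a gene at 45.9 to 58.8 CPM with a log2 fold change of -0.19. Ccne1 and Ccne2 share at most 18 coding bases in a row, starting at coding base 595 of Ccne1 and 592 of Ccne2 and shown in capitals, so their counts can be told apart.
Ccne1: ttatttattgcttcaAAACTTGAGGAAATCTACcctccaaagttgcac
Ccne2: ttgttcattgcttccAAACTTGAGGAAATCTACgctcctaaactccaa

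Transcripts of 2 of the kinases, Cdk2 and Cdk4, were lower in every p27OE library than in any control without passing the test. Cdk2 (chromosome 10, 128697939 to 128705031), the partner of cyclin E, measured 44.6, 52.3 and 46.7 CPM in the controls, against 34.1, 36.0 and 30.1 CPM in p27OE. The means were 47.9 ± 3.96 and 33.4 ± 3.0 CPM (SD, n = 3 each), with a log2 fold change of -0.52 ± 0.10 (SE) and a 95% interval of -0.76 to -0.28. The edgeR adjusted p was 0.0518. Cdk2 fell with DESeq2 (adjusted p = 0.000666), with the stricter filter (0.0479, edgeR) and without EV control 1 (0.0294, edgeR). It did not pass with the other scalings or without a filter (adjusted p from 0.0507 to 0.0663, edgeR), nor with limma-voom. Without any other single library it had no call, at adjusted p up to 0.224 (edgeR).

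Cdk4 (chromosome 10, 127063534 to 127067920), a partner of the D cyclins, was at 365.4, 365.6 and 365.1 CPM in EV control, a spread of 0.284 CPM (SD, n = 3). In p27OE it was at 343, 324 and 294 CPM, all below the controls. The difference of -0.19 ± 0.08 on the log2 scale (SE) had a 95% interval of -0.39 to 0.01 (edgeR adjusted p = 0.211). Of its exonic bases 19.7% overlap Tspan31 on the opposite strand, at 101 to 104 CPM in controls against 111 to 127 CPM in p27OE, a difference in the other direction (log2 0.19, edgeR adjusted p = 0.184).

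Cdk6 (chromosome 5, 3341485 to 3531008), the other partner of the D cyclins, was the scarcest member, with 301 to 485 counts. Its values were 7.53, 8.02 and 8.76 CPM in the controls, against 6.71, 9.15 and 9.83 CPM in p27OE, and p27OE 1 was the lowest of all libraries. Its log2 fold change of 0.08 had a 95% interval of -0.33 to 0.49 (edgeR adjusted p = 0.807). The coding sequences of Cdk4 and Cdk6 share at most 20 bases in a row, in capitals here, starting at coding base 463 of Cdk4 and 478 of Cdk6.
Cdk4: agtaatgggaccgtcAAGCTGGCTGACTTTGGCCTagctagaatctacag
Cdk6: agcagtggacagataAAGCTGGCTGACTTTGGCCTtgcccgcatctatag

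Cdk2 and Cdk4 did not pass the test, and 16.5% of all genes likewise lay below the controls without overlap. Their promoters are shown as the 250 bases before the start site in RefSeq (GRCm38.p6), found for 5 of the 8 members. They were searched on both strands for TTTNNCGC, a form of the E2F site in which N is any base, and for the E-box CACGTG, which MYC and related factors bind; in the windows described here no match of one overlapped a match of the other. The E2F form occurs in 4.28% of all 32851 promoter windows of this length and the E-box in 6.02%. The Cdk2 promoter, chr10:128705052-128705301 on the minus strand, holds 1 match to the E2F form and no E-box, with the match in capitals starting 140 bases before the start site.
Cdk2: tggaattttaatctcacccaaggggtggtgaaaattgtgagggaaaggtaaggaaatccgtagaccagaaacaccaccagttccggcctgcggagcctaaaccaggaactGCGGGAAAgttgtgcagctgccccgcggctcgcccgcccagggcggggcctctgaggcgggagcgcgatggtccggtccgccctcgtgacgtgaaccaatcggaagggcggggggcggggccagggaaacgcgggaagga
The Cdk4 promoter, chr10:127063285-127063534 on the plus strand, holds no match to the E2F form and 4 E-boxes, in capitals, starting 172, 118, 98 and 11 bases before the start site. Only 7 of the 32851 windows hold 4 or more E-boxes.
Cdk4: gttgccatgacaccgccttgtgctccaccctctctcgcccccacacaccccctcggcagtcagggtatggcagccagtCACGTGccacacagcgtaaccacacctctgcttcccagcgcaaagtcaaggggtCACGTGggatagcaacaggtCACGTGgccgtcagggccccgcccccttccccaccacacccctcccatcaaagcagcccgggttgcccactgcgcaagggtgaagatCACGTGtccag
In the windows of Ccnd3 and Ccne1 neither motif was found, and the Cdk6 window holds 1 match to each. A match describes these letters and is not evidence of binding.

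Levels of different genes were compared as CPM per kilobase of annotated exon. In EV control Cdk4 stood highest at 112 ± 0.0873, followed by Ccnd2 at 75.9 ± 3.65 and Ccnd1 at 72.7 ± 11.2 CPM per kb (SD, n = 3), whose ranges overlapped. Ccne1 at 23.3 ± 6.81 and Ccnd3 at 16.0 ± 1.76 CPM per kb also overlapped. Below them, without overlap between neighbours, came Cdk2 at 7.70, Ccne2 at 4.0 and Cdk6 at 0.579 CPM per kb. In p27OE the order began with Ccnd2 at 130 ± 11.6 and Ccnd1 at 121 ± 2.85 CPM per kb, which overlapped, and Cdk4 at 98.6 ± 7.69 CPM per kb lay below both in all 3 libraries. The order depends on the length used. Per kilobase of coding sequence Ccnd2 came first in both groups, and Ccnd3 lay above Ccne1 in every library, at 141 against 46.6 CPM per kb in the controls and 156 against 47.3 CPM per kb in p27OE.

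Among the D cyclin transcripts the share of Ccnd3 was lower in p27OE, while those of Ccnd1 and Ccnd2 overlapped between the groups. Per kilobase of exon, Ccnd1 made up 41.0, 45.7 and 45.3% of the summed D cyclin level in EV control 1, 2 and 3, against 47.1, 45.8 and 42.7% in p27OE 1, 2 and 3, and the ranges overlapped. Ccnd3 made up 9.59, 9.76 and 9.79% in the controls against 7.03, 6.63 and 6.09% in p27OE, with none. Among E cyclins the share of Ccne2 was 16.2, 14.3 and 14.1% in the controls against 12.4, 12.4 and 8.59% in p27OE, again without overlap. Among the 3 kinases Cdk4 held from 92.6 to 94.7% of the summed level in every library, and Cdk2 held 5.97, 6.92 and 6.23% in the controls against 4.91, 5.46 and 5.05% in p27OE. The 3 D cyclins together were at 165 ± 16.4 CPM per kb in controls against 269 ± 9.17 CPM per kb in p27OE (SD, n = 3 each), the kinases at 121 ± 0.695 and 105 ± 7.95 CPM per kb. These shares are descriptions and were not tested.

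**Figure D3:**
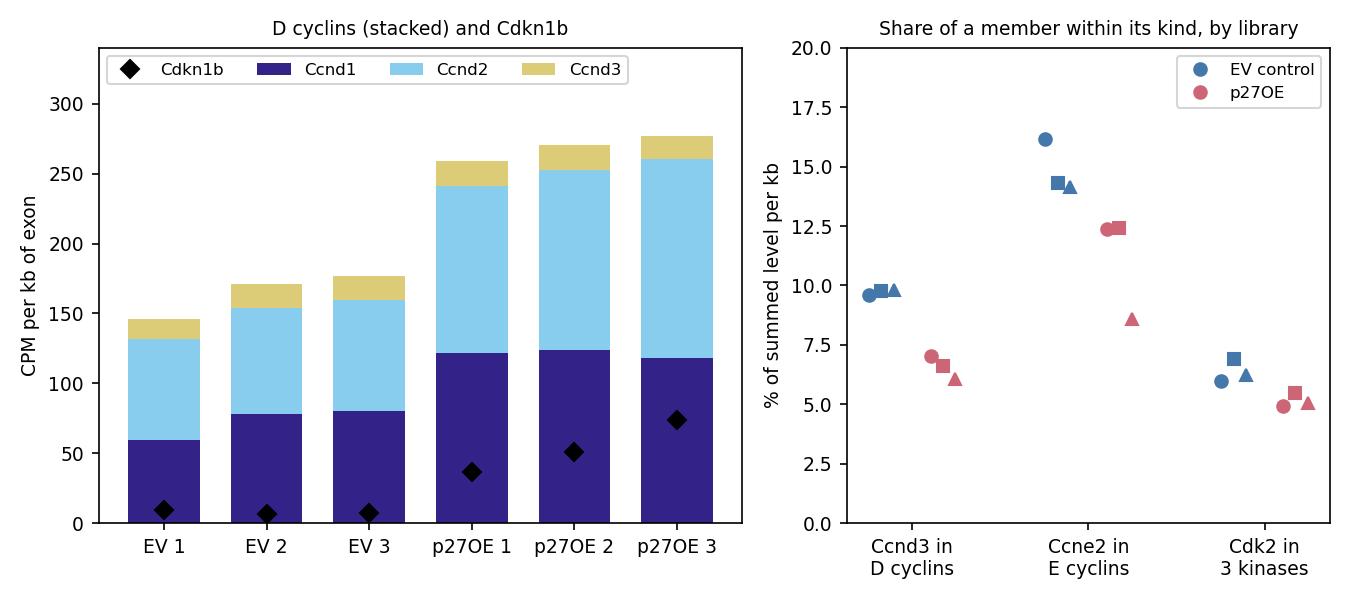
Left, level per kilobase of exon of the 3 D cyclins, stacked, and of Cdkn1b, as diamonds, in each library, from 0. Right, percent of the summed level of its kind held by Ccnd3, Ccne2 and Cdk2 in each library, EV control in blue and p27OE in red, 1 symbol per library number. Summed D cyclins are higher in p27OE while the share of Ccnd3 lies between 9.59 and 9.79% in EV control and between 6.09 and 7.03% in p27OE. The lower share goes with the larger sum, and the level of Ccnd3 itself overlapped between the groups.

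The D cyclins and the kinases were also set against the transcript of the inhibitor. Since that transcript was raised by design, lower ratios in p27OE are built in, and the values only describe the proportions. Per kilobase of exon the summed D cyclin level was 15.1, 24.7 and 24.9 times that of Cdkn1b in EV control 1, 2 and 3, against 7.08, 5.30 and 3.74 times in p27OE 1, 2 and 3. The summed level of the kinases was 12.5, 17.6 and 17.0 times that of Cdkn1b in the controls against 3.05, 2.08 and 1.3 times in p27OE. With coding lengths for all genes the D cyclin ratios were 15.8, 25.1 and 25.4 in the controls against 7.15, 5.41 and 3.89 in p27OE. Those of the kinases were 6.10, 8.65 and 8.34 in the controls against 1.48, 1.02 and 0.635 in p27OE. No source used here gives the length of the introduced transcript. These are transcripts, and protein was not measured in these files.

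Because libraries 1 stood apart in Y-linked level, the members were also compared between libraries alike in it. Between p27OE 1 and EV control 1, both low, the log2 difference was 1.03 for Ccnd1 and 0.72 for Ccnd2. Between p27OE 3 and the mean of EV control 2 and 3, all high, it was 0.58 for Ccnd1 and 0.87 for Ccnd2. For Ccnd1, Ccnd2, Cdk2 and Cdk4 the groups did not overlap, so the sign in either comparison was fixed in advance. Only the sizes of their differences are described here. Cdk2 differed by -0.39 and -0.71 in the same order and Cdk4 by -0.09 and -0.31. Ccne2 differed by -0.04 and -0.94, while Ccnd3 (0.38 and -0.01), Ccne1 (0.41 and -0.12) and Cdk6 (-0.17 and 0.23) changed sign between the comparisons. A fit that took the Y-linked level as a covariate, chosen after these data had been seen, passed 34.0% of all genes, 18.0% upward and 16.0% downward. Of the members Ccnd1 (edgeR adjusted p = 0.00151) and Ccnd2 (0.000336) rose and Cdk2 (0.00661) and Cdk4 (0.0248) fell in that fit. Ccnd3 (0.154), Ccne1 (0.39), Ccne2 (0.179) and Cdk6 (0.484) did not pass. With both libraries numbered 1 left out, 16.7% of genes passed, 7.81% upward and 8.90% downward, among them Ccnd1 (edgeR adjusted p = 0.0231), Ccnd2 (0.0231) and Cdk2 (0.0347), in the same directions.

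**Figure D4:**
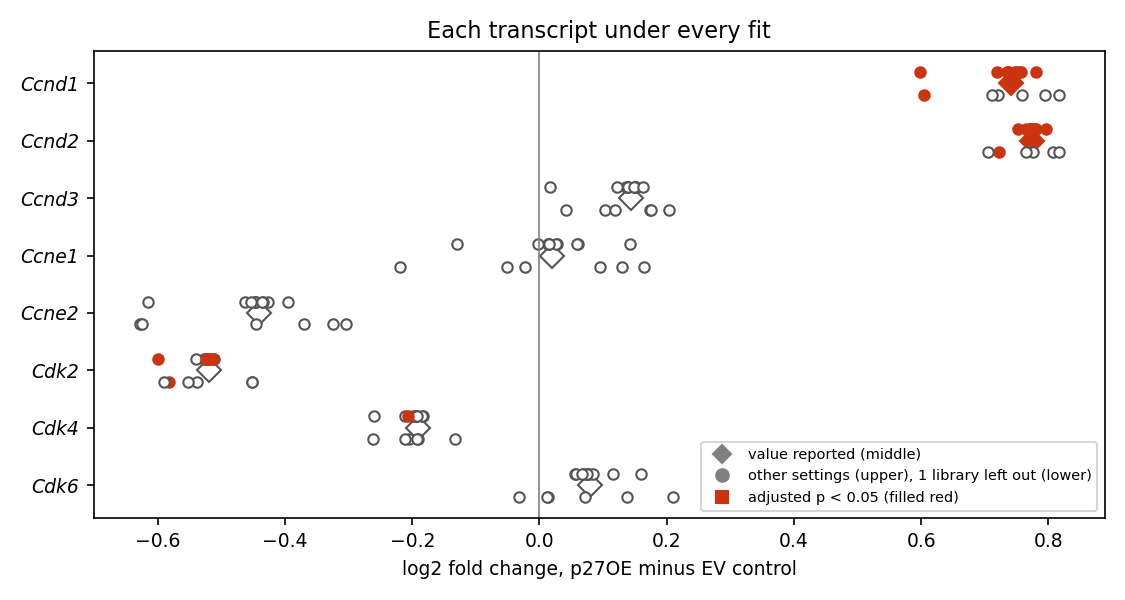
Log2 fold change of each transcript under the reported fit (diamonds), the other settings (circles above) and with 1 library left out (circles below); red filled symbols had an adjusted p under 0.05. Ccnd1 and Ccnd2 stay to the right of 0 and Ccne2, Cdk2 and Cdk4 to the left in all 17 fits, while Ccne1 and Cdk6 lie on both sides.

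Inhibitors of these kinases had values on both sides of 0, and Cdkn1b alone passed the test. Of 7 INK4 and CIP/KIP genes 1 rose, Cdkn1b itself, and 0 fell, with a median log2 fold change of 0.39, or 0.19 without Cdkn1b, against 0.01 over all genes tested. At an unadjusted p under 0.05 there were 4 higher and 1 lower (edgeR), as with DESeq2, and limma-voom called 1. These counts include Cdkn1b, which was raised by design and is the 1 that limma-voom called. Of the 6 other inhibitors, 4 had an unadjusted p under 0.05 (edgeR). Cdkn1a, which encodes p21, averaged 350 ± 65.7 CPM in the controls against 565 ± 58.9 CPM in p27OE (SD, n = 3; log2 0.69 ± 0.16, SE; edgeR adjusted p = 0.0675). Cdkn2b and Cdkn2a, which encode inhibitors of Cdk4 and Cdk6, were at 0.60 ± 0.12 and 0.39 ± 0.08 on the log2 scale without passing. Cdkn2d and Cdkn2c, inhibitors of the same kinases, were at -0.62 ± 0.18 and -0.51 ± 0.37 (log2, SE; edgeR adjusted p = 0.0937 and 0.433).

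Of 8 genes for the kinase that activates these complexes, the CDC25 phosphatases and the opposing kinases, 0 passed (edgeR; 4 lower at an unadjusted p under 0.05; DESeq2 4 lower, limma-voom 0), with a median of -0.36. Cdc25c, Pkmyt1 and Wee1, which act on the entry into mitosis, were at -0.95, -0.88 and -0.39, whereas Cdk7, Ccnh and Mnat1, the subunits of the activating kinase, were at 0.08, 0.05 and 0.01. Of 13 pocket protein, E2F and DP genes 0 passed (edgeR; 1 higher and 6 lower at an unadjusted p under 0.05; DESeq2 1 lower, limma-voom 0), with a median of -0.10. Rb1, the retinoblastoma gene, was at 0.40 ± 0.13, and the repressor E2f8 and E2f4 were at -0.86 ± 0.22 and -0.33 ± 0.11 (log2, SE).

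The S-phase genes that E2F is known to drive had lower values in p27OE. All 20 tested had log2 fold changes below 0, from -1.15 to -0.44 with a median of -0.69. Over all genes tested, 6746 of 13990 were below 0. Of the 20, 1 fell and 0 rose (edgeR, where 0.843% of all genes fell), and 19 were lower at an unadjusted p under 0.05. DESeq2 called 19 lower and limma-voom 1. Cdc7, a kinase that starts replication, fell from 17.2 ± 0.781 to 8.12 ± 1.22 CPM (SD, n = 3; edgeR adjusted p = 0.0303). Mybl2, Cdc45 and Mcm3 were at -1.15, -0.75 and -0.64 without passing. The E2F form searched above was found in 5 of the 17 of these genes with a promoter window. A gene was counted if any of its windows held a match, whereas the 4.28% given above is a share of windows. Ccne1 and Ccne2, which E2F is also known to drive, were at 0.02 and -0.44, above or at the upper end of that range.

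**Figure D5:**
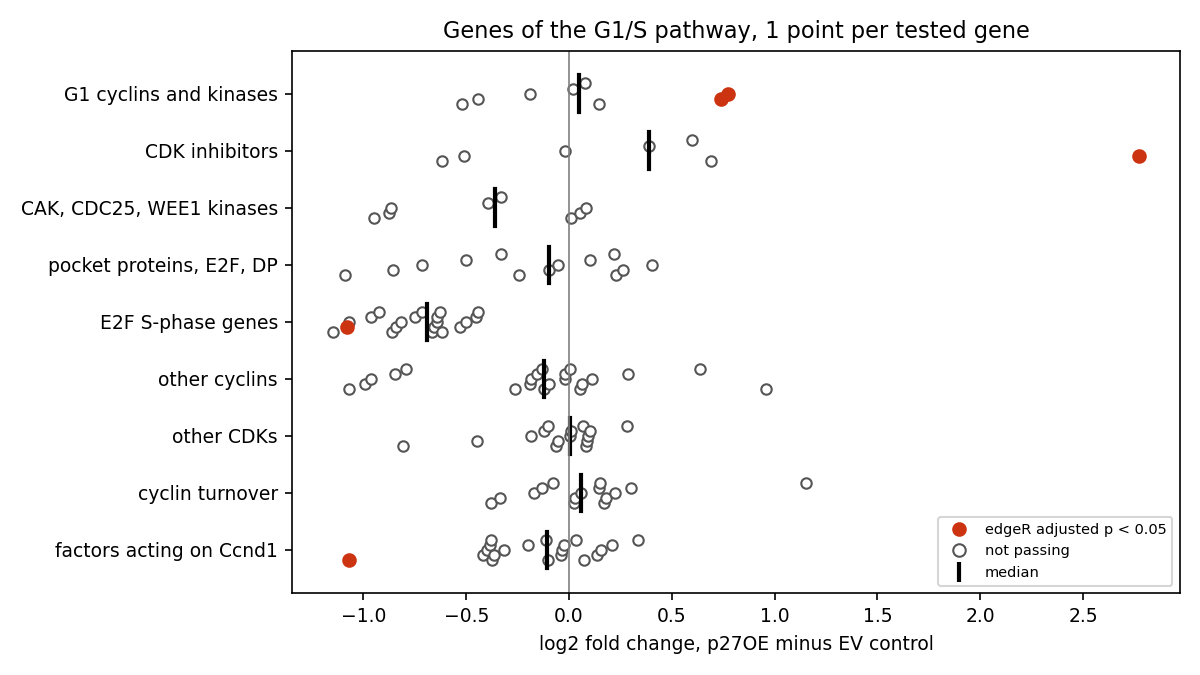
Log2 fold change between p27OE and EV control of each tested gene in the lists of the pathway, 1 point per gene, red and filled where the edgeR adjusted p was under 0.05, with the median as a black bar. Points of the S-phase list lie below 0 from -1.15 to -0.44, and the G1 cyclins and kinases spread from -0.52 to 0.77.

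Several cyclins and the main kinase of mitosis had values below 0 that did not pass in this fit. Of 21 other cyclin genes tested 0 passed (edgeR; 1 higher and 5 lower at an unadjusted p under 0.05; DESeq2 1 and 4, limma-voom 0), with a median of -0.12. Ccna2, Ccnb1 and Ccnf, which encode cyclins of S phase and mitosis, were at -1.07 ± 0.25, -0.99 ± 0.23 and -0.85 ± 0.19 (log2, SE; edgeR adjusted p = 0.0675, 0.0675 and 0.0658). Ccna2 is also counted in the S-phase list above. Of 15 other CDK genes tested 0 passed (edgeR; 0 higher and 2 lower at an unadjusted p under 0.05; DESeq2 1 lower, limma-voom 0), with a median of 0.00. Cdk1, the mitotic kinase, was at -0.81 ± 0.20, Cdk20 at -0.45 and Cdk5, a kinase best known from neurons, at 0.28.

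Of 15 genes for the breakdown of D and E cyclins 0 passed (edgeR; 3 higher and 2 lower at an unadjusted p under 0.05; DESeq2 2 and 1, limma-voom 0), with a median of 0.06. Cryab, a chaperone linked to cyclin D1 turnover, averaged 66.6 ± 16.3 CPM in the controls against 148 ± 55.0 CPM in p27OE (SD, n = 3; edgeR adjusted p = 0.0786). Btrc and Cul4b, parts of ubiquitin ligases, were at 0.30 ± 0.07 and -0.33 ± 0.08 (log2, SE). Of 20 transcription factors known to act on Ccnd1, 1 fell and 0 rose (edgeR; 1 higher and 4 lower at an unadjusted p under 0.05; DESeq2 1 and 2, limma-voom 0 and 1), with a median of -0.11. Ets2 fell from 54.0 ± 7.40 to 25.7 ± 1.17 CPM (SD, n = 3; edgeR adjusted p = 0.028), opposite in direction to Ccnd1. Creb1, Fos and Wwtr1, the last of which encodes TAZ, were at -0.42, -0.38 and 0.34 without passing. The calls of Cdc7 and Ets2 were lost without any single library other than EV control 1, at adjusted p from 0.0651 to 0.189 (edgeR).

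The genes most like each member over the 6 libraries were found by Pearson correlation of log2 CPM among 10365 genes, as a description with no test. For Ccnd1 they were S100a4, Id3 and Mmgt2 (r = 0.9935, 0.9934 and 0.9931), and for Ccnd2 they were Chpf, Cpa6 and Slc35a2 (0.9984, 0.9981 and 0.9980). Ccnd3 was most like Col2a1 (0.9739), Ccne1 like Preb (0.9972) and Ccne2 like Fen1, a nuclease of DNA replication (0.9814). Cdk2 was most like Coa7 (0.9994), Cdk4 like Gtf2h2 (0.9993) and Cdk6 like Pla2g7 (0.9826). The libraries fall into 2 groups and differ in Y-linked level, which all these genes share.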

How the data were processed

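RNA was sequenced in 6 libraries, 3 per group, grouped by sample title. The deposited table holds raw read counts per gene symbol, 1 column per library. The submitters' processing notes name mm10, featureCounts 1.4.6 with Subread, and the aligners Bowtie2 2.2.6 and TopHat2 2.0.14; the annotation, strand setting and filters are not given in the sources used here. Genes were filtered with filterByExpr, scaled by TMM and tested with edgeR 4.0.16 (glmQLFit, robust, and glmQLFTest, two-sided, group as the only term) in R 4.3.3, with Benjamini-Hochberg adjustment over the 13990 genes tested. Intervals are 95% intervals of the log2 fold change. The labels do not say that libraries of a group came from separate cultures, and the p-values then reflect nothing beyond the spread between these samples, which may be technical. Alternatives were scaling by RLE, upper quartile or total counts, testing without a filter, a filter of 1 CPM in 3 libraries, DESeq2 1.42.0, limma-voom (limma 3.58.1), a replicate block and each library left out; a Y-linked covariate and a fit without either library numbered 1 were added after the data were seen. Members and gene lists were chosen with earlier results of these data known. Genes named are the members, Cdkn1b, list genes that passed or had the 3 smallest p, and the 3 genes most like each member (mean log2 CPM at least 2, no predicted gene symbol); Oraov1, Tspan31, Ints8, Cdk7, Ccnh, Mnat1, Cdkn2c and Cdkn2d were named after their values were seen. Coordinates and lengths came from GENCODE M21 (GRCm38, the assembly of mm10).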

Additional observations from a re-analysis of the deposited data

How the results depend on the processing

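The number of genes called rested strongly on the setting. The 365 calls became 2321 with DESeq2, 4761 with a Y-linked covariate and 2334 with both libraries numbered 1 left out. They were 1 to 1827 when each library was left out in turn, with 1827 without EV control 1; the cause was not tested. The replicate number as a block gave 2410 calls among 13990 genes, 1291 higher and 1119 lower. Ccnd1 (edgeR adjusted p = 0.0122), Ccnd2 (0.00633) and Cdk2 (0.015) passed. Of the 39 members, pathway genes and overlapping genes retested, 0 lost a call under the block and 22 gained one. Among the latter were Ccna2 (edgeR adjusted p = 0.0191), Ccnb1 (0.0237), Ccnf (0.0253) and Cdk1 (0.0304), all lower. The pathway genes had been picked for the smallest p in these same data, so gains among them are no independent result. The deviations of libraries with the same number correlated at 0.669, 0.043 and 0.495 across genes. For libraries with different numbers the correlations ran from -0.635 (EV control 1 with p27OE 3) to 0.555 (EV control 2 with p27OE 3). Pairing was not assumed. The remaining scalings and filters, and limma-voom, gave 313 to 497 calls, of which 238 of 313 were higher with total counts against 247 of 365 with TMM. Ccnd1 and Ccnd2 kept their direction under all 16 alternatives and their call in 11 each; Cdk2 kept its direction in all and passed in 6, and Cdk4 passed in 1. Ccnd3, Ccne1, Ccne2 and Cdk6 passed in none of the 16. No called value reversed. For Cdk6, with 301 to 485 counts per library, changes of up to 1.4-fold upward lie within the 95% interval.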
